A study of Mus musculus with 66 samples.

Results

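Newly made RNA of 3T9-MycER fibroblasts was compared after 12 h of 4-hydroxytamoxifen (OHT) and at 0 min. The comparison uses 6 libraries, 3 of labelled RNA at 12 h and 3 of labelled RNA at 0 min, taken by the time and RNA kind in their titles from 33 labelled libraries and 66 libraries in all. The cells of both groups were 3T9 mouse embryonic fibroblasts of genotype c-myc flox/flox of stage E13.5 that had been infected in culture with MycER, so the 0 min cells carried the floxed alleles and the fusion gene as well. Both groups grew in 10% fetal bovine serum, and both came from stocks kept in zeocin (100 µg/ml) after thawing, which was left out during the experiments. The 12 h cells had received 400 nM OHT for 12 h, and the 0 min cells had 0 h in it. In both groups RNA was labelled for 10 min with 300 µM 4-thiouridine (4sU), then biotinylated and pulled out with streptavidin beads. Exon and intron values were kept in separate tables of 11513 genes each. Libraries at 8 h and 16 h of the same OHT treatment, and total RNA at 12 h and 0 min, serve as neighbours for comparison.

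Myc is a transcription factor that binds DNA as a dimer with Max, at E-box sequences near gene starts, and it is best known for raising genes of ribosome production, nucleotide synthesis and cell growth. In MycER it is fused to the hormone-binding part of the oestrogen receptor, which holds the protein inactive until OHT binds. A short 4sU pulse marks RNA made during the pulse, so labelled RNA follows synthesis closely, and intron reads come mostly from transcripts not yet spliced. In fibroblasts, high Myc activity is also known to go with lower expression of genes for the cytoskeleton, adhesion and collagens.

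The deposited values summed over exons (in units of 1e6) to 12.53, 12.16 and 12.75 at 12 h, against 13.29, 12.78 and 13.81 at 0 min. Introns held 72.1%, 74.1% and 72.7% of each library's exon and intron values at 12 h, against 71.8%, 74.2% and 70.7% at 0 min. The true read depth is unknown because the deposited values had been rescaled, so no counting interval is given. No separate cultures are named in the labels. The p-values therefore set changes only against the spread between libraries, estimated from all 33 libraries of an RNA kind and not from the 6 compared alone. That spread may be technical. The labels list no time course without OHT, so effects of OHT and of time in culture cannot be told apart, and without a spike-in every change is relative to the typical gene. Of 12 fibroblast markers 11 were in the table. Their summed RPKM (a level per gene length and library size) was 684 to 799 at 12 h, against 1114 to 1347 at 0 min. RPKM values are given as deposited, while log2 changes come from values scaled once more between libraries, so they need not match. Most of that sum was S100a4 (351 RPKM at 12 h and 551 at 0 min) and Vim (211 and 325). All other tabulated fibroblast markers than Col3a1, Twist1 and Prrx1 were called lower, Col1a1, Col1a2 and Fn1 among them. Their log2 changes ran from -0.53 for Vim to -1.45 for Pdgfra. Col3a1, Twist1 and Prrx1 were not called, with log2 changes of 0.014, -0.062 and 0.13. The 1 tabulated epithelial marker of 8 and the 1 tabulated endothelial marker of 6 summed to at most 0.078 RPKM at 12 h and at most 0.0501 RPKM at 0 min. Of 7 blood markers 4 were tabulated and summed to 3.38 to 3.91 RPKM at 12 h, against 3.47 to 3.98 RPKM at 0 min. Of these Csf1r was called, with a log2 rise of 0.59 (limma adjusted p = 0.00303), and Ptprc, Cd68 and Itgam were not. Neural markers, 3 of 7 tabulated, summed to 26.7 to 33.6 RPKM at 12 h, against 28.7 to 34.6 RPKM at 0 min, and fat markers (1 of 6) to 1.2 to 1.33 RPKM at 12 h, against 1.17 to 1.37 RPKM at 0 min. Muscle markers (1 of 6) were at 0.211 to 0.51 RPKM at 12 h, against 0.527 to 0.738 RPKM at 0 min. Most of the neural sum was Nes (25.1 RPKM at 12 h and 29.9 RPKM at 0 min), while Tubb3 rose by 1.84 (limma adjusted p = 2.17e-08) and Map2 fell by 0.88 (limma adjusted p = 1.25e-04). In bulk RNA, fewer cells of a type and less RNA per cell cannot be told apart. Among the 3 libraries at 12 h, replicate 1 lay farthest from the others for 38.2% of genes in exons and 46.7% in introns. At 0 min replicate 2 did so for 41.1% in exons and 43.2% in introns, so shares of this size were not particular to 12 h. Results that rest on replicate 1 at 12 h are given with and without it.

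Of 11488 genes tested in exons, 2899 (25.2%) rose and 2791 (24.3%) fell at 12 h against 0 min, 49.5% in all, at an adjusted p under 0.05 in limma. Changes were mostly modest, with a median size of 0.49 on the log2 scale among called genes. A log2 change of at least 1, which is a 2-fold difference, was reached by 312 rising genes (2.72%) and 431 falling genes (3.75%). The values at 12 h did not overlap those at 0 min for 6158 of the 11488 genes, 5257 of them among the 5690 called. For these counts the deposited values were scaled once more between libraries, and without this extra scaling the split was 2053 rising and 3362 falling, so the balance of directions depends on the scaling. In introns, 3208 genes (27.9%) rose and 3088 (26.8%) fell of 11506 tested, 54.7% in all, with 373 (3.24%) and 530 (4.61%) past a log2 change of 1, and 3910 rose and 2479 fell when libraries were scaled by their sums.

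**Figure D1:**
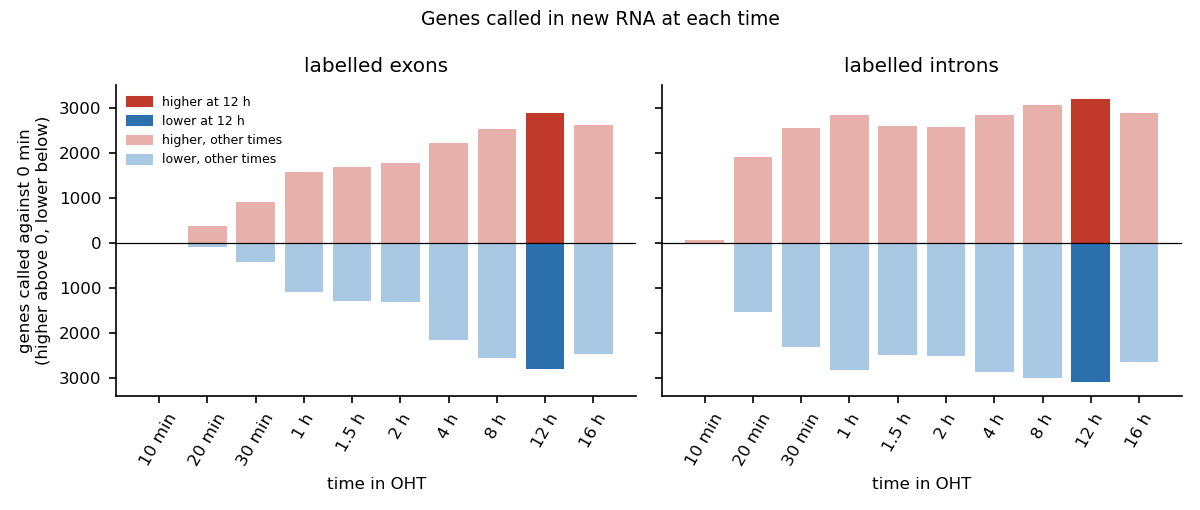
Number of genes called higher (bars above 0) and lower (bars below 0) than at 0 min (y axis, limma adjusted p under 0.05) at each time in OHT (x axis), in exons and introns of labelled RNA, with 12 h in darker colour. The number called in exons was 0 at 10 min and 2671 at 1 h, and it was highest at 12 h with 5690, against 5083 at 8 h and 5092 at 16 h.

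In exons the share of genes called was 0% at 10 min, 4.03% at 20 min, 11.6% at 30 min, 23.3% at 1 h, 26% at 1.5 h, 26.9% at 2 h, 38.3% at 4 h, 44.2% at 8 h, 49.5% at 12 h and 44.3% at 16 h. In introns it was 0.539% at 10 min, 30% at 20 min, 42.2% at 30 min, 49.2% at 1 h, 44.2% at 1.5 h and 2 h, 49.7% at 4 h, 52.7% at 8 h, 54.7% at 12 h and 48.1% at 16 h. The intron share at 30 min was thus close to the exon share at 8 h. All times were set against the same 3 libraries at 0 min, so their counts are not independent of each other.

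The largest rise passing the naming rule belonged to Slc38a3, a glutamine transporter of the cell membrane (chr9:107552970-107569705 on the minus strand, mm9). Its exon values, which like all values per library here are deposited values after scaling and run in the order of replicates 1, 2 and 3, were 69.96, 61.6 and 54.2 at 12 h, against 0.968, 0 and 3.69 at 0 min. All libraries at 12 h lay far above those at 0 min, and one library at 0 min was listed at 0, so the fitted log2 change of 4.90 ± 0.69 (limma adjusted p = 3.04e-07) depends on the 1 added before the logarithm and was 3.38 with 5 added. A number in parentheses after a gene name is its log2 change in labelled exons, 12 h minus 0 min, unless another table is named. Rgcc, a regulator of the cell cycle, had 97.3, 149 and 154 at 12 h, against 5.81, 5.03 and 6.46 at 0 min. Its lowest value at 12 h was well above its highest at 0 min, with a log2 change of 4.29 ± 0.41 in exons and 4.51 in introns. Ankrd6, the scaffold protein diversin that acts in Wnt signalling, had 402, 412 and 483 at 12 h, against 52.2, 50.3 and 44.3 at 0 min. The 3 values within each time were close to each other, and the log2 change was 3.12 ± 0.16 (limma adjusted p = 1.10e-17).

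St6galnac4 encodes a sialyltransferase that adds sialic acid to glycans, and it had the highest exon values of the 12 genes with the largest rises. Its exon values were 3124, 3447 and 3422 at 12 h, against 569, 429 and 492 at 0 min. The groups were widely apart and the log2 change was 2.75 ± 0.084 (limma adjusted p = 9.95e-24). Il15ra, the high-affinity chain of the interleukin-15 receptor, had 492, 676 and 709 at 12 h, against 121, 82.6 and 101 at 0 min. Replicate 1 was lowest at 12 h and highest at 0 min, and the groups still did not overlap (log2 change 2.61 ± 0.14). Dusp2, a nuclear phosphatase that switches off MAP kinases, had 298, 366 and 357 at 12 h, against 58.1, 72.5 and 54.5 at 0 min, a log2 change of 2.45 ± 0.13. Smpdl3b, a lipid phosphodiesterase of the membrane, had 502, 500.1 and 487 at 12 h, against 75.5, 74.5 and 94.2 at 0 min. Its 3 values at 12 h differed by little, and the log2 change was 2.60 ± 0.13. The other rises were Reep6 (2.73), a shaper of the endoplasmic reticulum, Rasl11a (2.63), a small GTPase of the Ras family, Cped1 (2.45), Ppargc1b (2.44), a coactivator of nuclear receptors in mitochondrial gene control, and P2ry2 (2.42), a receptor for extracellular ATP and UTP.

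The largest fall passing the rule was that of Tgfb1i1, which encodes Hic-5, a LIM-domain protein of focal adhesions (chr7:135390326-135398287 on the plus strand, mm9). Its exon values were 302, 221 and 154 at 12 h, against 1438, 1314 and 1614 at 0 min. Every value at 12 h lay far below those at 0 min, with the lowest in replicate 3, and it fell by 2.73 ± 0.17 on the log2 scale (limma adjusted p = 3.78e-15). Fblim1, or migfilin, another LIM protein that links filamin to adhesions, had 78.1, 88.7 and 58.3 at 12 h, against 458, 396 and 516 at 0 min. Those groups were also far apart, and it fell by 2.60 ± 0.16 (limma adjusted p = 3.26e-15). Arntl, also called Bmal1, an activator of the circadian clock, had 153, 109 and 103 at 12 h, against 575, 856 and 592 at 0 min. Replicate 2 stood above the other two at 0 min, and the gene fell by 2.46 ± 0.17 (limma adjusted p = 5.17e-14). Sorbs3 encodes vinexin, an adaptor of focal adhesions. It had 114, 62.6 and 45.0 at 12 h, against 309.6, 272 and 356 at 0 min, so its 3 values at 12 h were spread widely but all below 0 min, and it fell by 2.17 ± 0.19.

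Tinagl1, a matricellular protein, had 172, 142 and 132 at 12 h, against 737, 696 and 821 at 0 min. Its values were tight within each time, and it fell by 2.33 ± 0.11 (limma adjusted p = 1.33e-18). Exon values are not divided by gene length, and Prune2 had the highest of the 12 genes with the largest falls. Its values were 641, 489 and 431 at 12 h, against 2295, 2428 and 2300.4 at 0 min, and it fell by 2.19 ± 0.11. Egr3, a zinc finger factor of the immediate early response, had 38.5, 32.4 and 36.8 at 12 h, against 142, 224 and 178 at 0 min. Its values at 0 min were spread while those at 12 h were close together, and it fell by 2.28 ± 0.36 (limma adjusted p = 1.91e-06). Other falls were those of Fam214b (-2.41), Klhdc8a (-2.31), the orphan receptor gene Gpr153 (-2.18) and Mob3a (-2.15), a member of the Mob family of kinase regulators. Of the 12 falling genes, Tgfb1i1, Fblim1 and Sorbs3 code for proteins of adhesion sites.

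**Figure D2:**
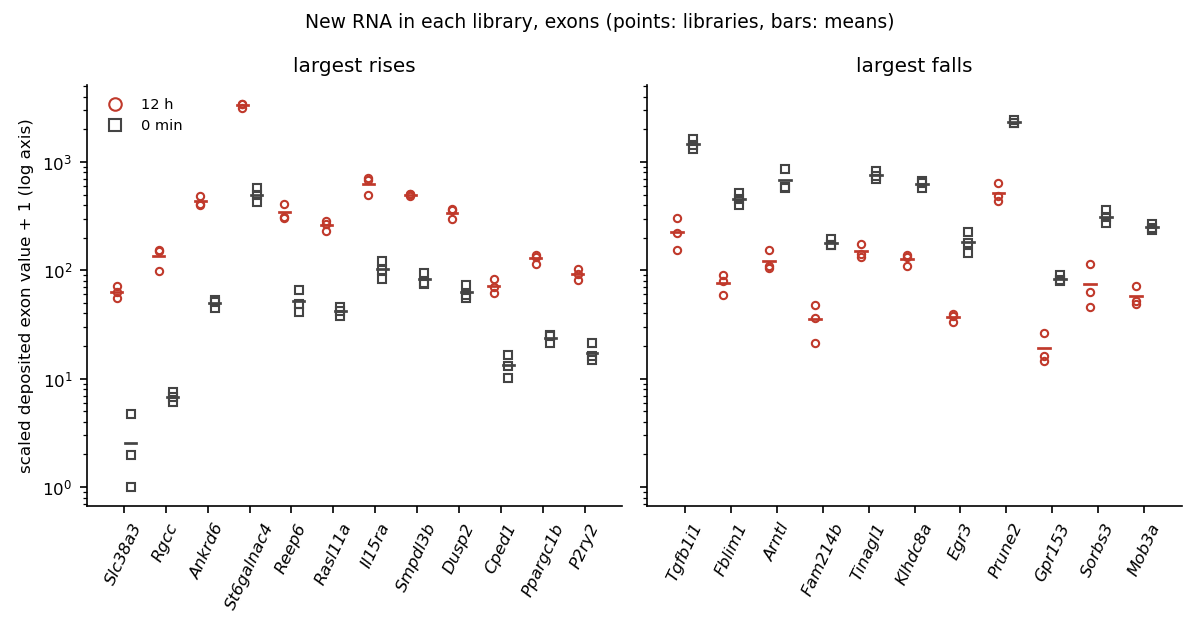
Exon values of the genes with the largest rises and falls in each labelled library (y axis, scaled deposited value + 1 on a log axis, 1 point per library, bars for means), with 12 h left of 0 min for each gene. For each gene the 3 points at 12 h lie on one side of the 3 points at 0 min, as the naming rule required, and the library of Slc38a3 that was listed at 0 is drawn at 1.

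Promoter sequences of the first 3 rising and first 3 falling genes whose windows held a listed motif are shown so that the letters near their starts can be read beside their values. Of the 24 genes with the largest rises and falls 7 had no window, Slc38a3 and Tgfb1i1 among them. Each window runs from 250 bases before to 50 bases after the annotated start in RefSeq, on build GRCm38.p6, and is written 5′ to 3′ on the gene's own strand. Capitals mark matches, on either strand, to the E-box CACGTG, its variant CACGCG, the AP-1 motif TGACTCA, the TEAD motif GGAATG or the GC box GGGCGG. The SRF motif, the CArG box, was searched too. The windows are Rgcc at chr14:79301586-79301885 on the minus strand, Ankrd6 at chr4:32950777-32951076 on the minus strand and St6galnac4 at chr2:32586828-32587127 on the plus strand among the rises. Among the falls they are Fblim1 at chr4:141606003-141606302 on the minus strand, Arntl at chr7:113207215-113207514 on the plus strand and Fam214b at chr4:43046171-43046470 on the minus strand.
Rgcc: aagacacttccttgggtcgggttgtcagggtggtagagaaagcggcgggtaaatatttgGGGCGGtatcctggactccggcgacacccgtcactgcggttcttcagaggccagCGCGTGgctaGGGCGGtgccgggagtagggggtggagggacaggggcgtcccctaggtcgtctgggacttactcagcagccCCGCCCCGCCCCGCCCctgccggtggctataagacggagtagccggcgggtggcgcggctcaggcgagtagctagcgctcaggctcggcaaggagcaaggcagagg
Ankrd6: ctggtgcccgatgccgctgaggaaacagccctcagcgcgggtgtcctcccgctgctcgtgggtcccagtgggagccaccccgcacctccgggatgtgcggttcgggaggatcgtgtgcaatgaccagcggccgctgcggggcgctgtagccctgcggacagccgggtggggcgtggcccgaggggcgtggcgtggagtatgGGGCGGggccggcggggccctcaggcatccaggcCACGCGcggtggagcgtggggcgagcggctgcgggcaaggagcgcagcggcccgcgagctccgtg
St6galnac4: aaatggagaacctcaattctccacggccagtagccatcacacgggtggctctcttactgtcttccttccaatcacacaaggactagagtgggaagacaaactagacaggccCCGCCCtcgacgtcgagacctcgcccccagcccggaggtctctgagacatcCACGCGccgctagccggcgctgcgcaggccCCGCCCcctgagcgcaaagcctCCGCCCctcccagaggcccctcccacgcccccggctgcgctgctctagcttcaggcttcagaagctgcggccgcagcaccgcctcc
Fblim1: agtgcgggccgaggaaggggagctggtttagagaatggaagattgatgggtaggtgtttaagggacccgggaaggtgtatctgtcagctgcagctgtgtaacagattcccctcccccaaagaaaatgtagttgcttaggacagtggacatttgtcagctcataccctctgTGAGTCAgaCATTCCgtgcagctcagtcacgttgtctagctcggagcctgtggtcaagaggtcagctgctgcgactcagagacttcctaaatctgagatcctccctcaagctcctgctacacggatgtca
Arntl: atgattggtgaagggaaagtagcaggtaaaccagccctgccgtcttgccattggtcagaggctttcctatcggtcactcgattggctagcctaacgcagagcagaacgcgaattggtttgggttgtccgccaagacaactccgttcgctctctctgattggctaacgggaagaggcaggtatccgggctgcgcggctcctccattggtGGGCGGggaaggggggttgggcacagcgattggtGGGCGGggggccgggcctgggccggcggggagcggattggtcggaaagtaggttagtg
Fam214b: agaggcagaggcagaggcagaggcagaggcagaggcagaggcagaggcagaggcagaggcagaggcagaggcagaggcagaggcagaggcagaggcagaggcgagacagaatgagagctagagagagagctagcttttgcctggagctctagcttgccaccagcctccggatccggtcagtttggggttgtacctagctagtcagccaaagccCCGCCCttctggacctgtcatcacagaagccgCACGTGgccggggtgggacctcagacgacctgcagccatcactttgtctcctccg

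All 3 rising windows shown held CACGCG, at 137 bases before the start in Rgcc, 15 before in Ankrd6 and 88 before in St6galnac4, and all 3 also held GGGCGG. Of the other largest rises with a window, Dusp2 held CACGCG, while Rasl11a, Il15ra, Smpdl3b, Cped1 and P2ry2 did not. Among the largest falls Prune2 held CACGCG. Where a gene had several windows, as Ankrd6, Fblim1, Arntl and Fam214b had, only the first listed was used. Among the 3 falling windows, Fblim1 held TGACTCA at 80 and GGAATG at 71 bases before the start, Arntl held GGGCGG at 42 and 8 bases before, and Fam214b held GGGCGG at 37 and CACGTG at 5 bases before. Over 9192 tested genes with a window, CACGCG was present in 24.4% of windows of rising genes, 15.3% of falling genes and 18.1% of all. Among genes past a log2 change of 1 the shares were 29.5% for rises and 11.7% for falls. The canonical CACGTG was at 11.8% in rising, 10.1% in falling and 10.6% in all windows, and at 11.2% and 6.74% among rises and falls past that change. TGACTCA was at 2.55% in rising, 4.24% in falling and 3.41% in all windows, and at 4.38% and 8.21% among rises and falls past a log2 change of 1. GGAATG was at 9.52%, 14.2% and 11.8% of rising, falling and all windows, GGGCGG at 67.4%, 71.1% and 65.7%, and the CArG box at 0.935%, 2.21% and 1.39%. Past a log2 change of 1 the shares among rises and falls were 10.4% and 15% for GGAATG, 69.3% and 66.9% for GGGCGG, which turns its order round, and 2.39% and 3.81% for the CArG box. No motif contains another, these shares were not tested, and a match is a run of letters and no evidence of binding.

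Genes for making ribosomes rose almost without exception in exons, there in the highest share of any of the 44 gene lists (93.5%). In ribosome biogenesis 29 of 31 tested members rose and 0 fell, with a median log2 change of 0.42, against 0.016 over all genes, and in introns 25 of 31 rose (80.6%), next to 80.8% in the nuclear pore and transport list. Rrp9, a protein of the U3 snoRNP that processes ribosomal RNA, had 2409, 2943 and 3016 at 12 h, against 1045, 843 and 948 at 0 min. All 3 libraries at 12 h were far above 0 min, with a log2 change of 1.56 ± 0.084 (limma adjusted p = 4.64e-17). Ebna1bp2 (0.99) and Nop16 (0.97), nucleolar assembly factors of the large subunit, and Ddx18 (0.78), an RNA helicase of the nucleolus, rose too. Ncl, the abundant nucleolar protein nucleolin, averaged 67128 ± 3998 at 12 h and 40902 ± 2289 at 0 min (SD, n = 3 each) and rose by 0.71 ± 0.096.

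Of RNA polymerases I and III, which make ribosomal and transfer RNA, 20 of 30 members rose and 0 fell (median 0.31). Polr1b, the second largest subunit of polymerase I, had 3207, 3260.3 and 3872 at 12 h, against 1977, 1676 and 1696 at 0 min, with no overlap, and rose by 0.95 ± 0.071. Taf1c (1.25), a part of the polymerase I initiation factor, rose too. Translation factors had 13 rising and 0 falling of 23, led by Eef1e1, a scaffold protein of the tRNA synthetase complex, with 1731, 1697 and 1585 at 12 h, against 714, 743 and 713 at 0 min (1.21 ± 0.077), and by the cap-binding factor Eif4e (0.69). The tRNA synthetases were mixed, with 9 of 20 rising, among them Farsa (0.63) and Kars (0.45), and 4 falling, among them Aars (-0.35). Without the extra scaling 5 synthetases rose. On the opposite strand Rrp9 overlaps Parp3 and Taf1c overlaps Lrrc50, and because the use of strand in counting is not given, reads of such pairs cannot be told apart.

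Metabolic genes of growth rose in most cases. In purine and pyrimidine synthesis 16 of 23 rose and 2 fell, with Ppat (0.78), the first committed enzyme of purine synthesis, and Adsl (0.65) at the head, while Cad, the multifunctional enzyme that starts pyrimidine synthesis, rose by 0.61 ± 0.081. In serine and one-carbon metabolism 8 of 14 rose, including the mitochondrial enzymes Mthfd1l (0.75) and Shmt2 (0.57) and the methionine adenosyltransferase Mat2a (0.69). In polyamine synthesis 5 rose and 2 fell of 9, and Odc1, its rate-limiting enzyme, rose by 0.69 ± 0.087 with Srm (0.50). Of 17 amino acid transporters 9 rose and 2 fell. Beside Slc38a3 the rises included Slc43a2 (1.60), a carrier of large neutral amino acids, and Slc1a5 (0.79), a glutamine carrier, while Slc1a4 was at -0.53.

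Most measured genes of the mitochondrial ribosome and of mitochondrial import rose. In the mitochondrial ribosome and transcription list 20 of 25 rose and 0 fell (median 0.41). Tfb2m, a transcription factor of mitochondrial DNA, had 961, 1013 and 1145 at 12 h, against 454, 461 and 437 at 0 min, with the groups far apart (log2 change 1.20 ± 0.078), and Mrpl16 of the mitochondrial ribosome was at 1.09. Of 19 genes of mitochondrial protein import and chaperones, 16 rose and 0 fell, led by the import proteins Timm8a1 (0.84) and Tomm20 (0.64). The respiratory chain had 8 rising (30.8%, against 25.2% of all genes) and 4 falling (15.4%, against 24.3%) of 26 in exons (median 0.10), with Uqcrfs1 at 0.34. It had 1 rising and 5 falling without the extra scaling and 5 and 3 without replicate 2 at 0 min. In its introns 17 rose (65.4%, against 27.9% of all genes) and 1 fell (3.85%, against 26.8%).

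Genes of folding, nuclear transport, splicing and the proteasome were also counted. The CCT chaperonin and heat shock list had 13 rising and 1 falling of 19, with the Hsp90 partner Fkbp4 at 0.84 and Hsp90aa1 at 0.63. The nuclear pore and transport list had 23 rising and 1 falling of 26, among them Rangap1 (0.73), the activator of the Ran GTPase, and the pore protein gene Nup54 (0.71). Of 28 splicing factors 18 rose and 0 fell, with the methyltransferase gene Prmt5 at 0.82 and Srsf1 at 0.69. The proteasome had 8 rising and 0 falling of 21, and its assembly chaperones Psmg2 (0.95) and Psmg1 (0.64) were among the 4 members with the smallest p. Without the extra scaling these counts were 15 and 1 for the nuclear pore, 8 and 0 for splicing and 5 and 2 for the proteasome, whose median was then -0.0124. RNA polymerase II and elongation had 8 rising and 4 falling of 24, with the subunit Polr2f at 0.71 and the Mediator gene Med12 at -0.58, and its median turned below 0 without that scaling.

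Genes of the contractile cytoskeleton fell together. In actomyosin and adhesion 26 of 27 tested members fell and 0 rose, with a median of -0.80 in exons, and 27 of 27 fell in introns with a median of -1.12. Flna, filamin A, which cross-links actin, had 16313, 13661 and 16726 at 12 h, against 33181, 30753 and 34201 at 0 min. All values at 12 h were far below those at 0 min, and Flna fell by 1.08 ± 0.072. Cnn2, the calponin that binds actin, fell by 0.94 ± 0.068. Tgfb1i1 and Fblim1 belong to the same list. Limk1, a kinase that inactivates the actin-severing protein cofilin, rose, with 608, 588 and 598 at 12 h, against 229, 187 and 257 at 0 min and a log2 change of 1.42 ± 0.12.

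Adhesion receptors and the matrix fell as well. Of 22 integrins and cadherins 13 fell and 0 rose (median -0.64). Itga3, a laminin-binding integrin chain, had 1466, 1197 and 1287 at 12 h, against 3561, 3208 and 3498 at 0 min, with no overlap, and fell by 1.38 ± 0.068, and the tight junction gene Cldn1 fell by 2.04 ± 0.17. In the extracellular matrix list 24 of 31 fell and 1 rose (median -0.71), with the collagen gene Col5a1 at -1.42 ± 0.074, thrombospondin 1 (Thbs1) at -1.54 ± 0.12 and the laminin gene Lamb1 at -0.99. The 1 matrix gene that rose was Lamc1 (0.45), named after its value was seen. Col5a1 and Pdgfra are also fibroblast markers, and the summed marker level given above fell too. Of the tabulated fibroblast markers only Col3a1, Twist1 and Prrx1 were not called lower. Among matrix enzymes and inhibitors 10 of 16 fell and 2 rose. Plau, the urokinase plasminogen activator, had 356, 382 and 324 at 12 h, against 1473, 1504 and 1477 at 0 min. Its 3 values were nearly equal within each time, and it fell by 2.07 ± 0.12, while the tissue plasminogen activator Plat fell by 1.99 ± 0.16 and the collagenase activator Mmp14 by 1.21 ± 0.12.

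YAP and TGF-beta targets and growth factor receptors fell in most of their measured members. In YAP and TGF-beta targets 18 of 25 fell and 1 rose (median -0.59). Smad3, which carries the TGF-beta signal to the nucleus, had 563, 562 and 559.5 at 12 h, against 1382, 1254 and 1288 at 0 min. The 3 values at 12 h were within a few units of each other, and it fell by 1.22 ± 0.061 with the receptor Tgfbr2 (-1.23). Of 24 growth factors and receptor tyrosine kinases 16 fell and 0 rose (median -0.56). Pdgfra, a receptor for platelet-derived growth factor, had 333, 312 and 275 at 12 h, against 811, 852 and 842 at 0 min, and fell by 1.45 ± 0.079, beside Fgfr1 (-1.16) and Met (-0.95). Among cytokines and chemokines 11 of 19 fell, with Csf1 at -1.10, Lif at -1.43 and the NF-kappaB inhibitor gene Tnfaip3 at -1.55, and the 1 that rose was Il15ra. Interferon and antiviral genes had only 7 members tested of 26 listed. Of these 2 fell (28.6%, near the 24.3% of all genes) and 0 rose (against 25.2%). The 2 were Irf1 (-1.05) and Ddx58 (-1.13), the viral RNA sensor RIG-I. The Wnt and Notch list had 5 falling of 14, among them Lef1 (-0.56) and Wnt5a (-0.57), and 3 falling without replicate 2 or 3 at 12 h or without replicate 1 at 0 min.

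**Figure D3:**
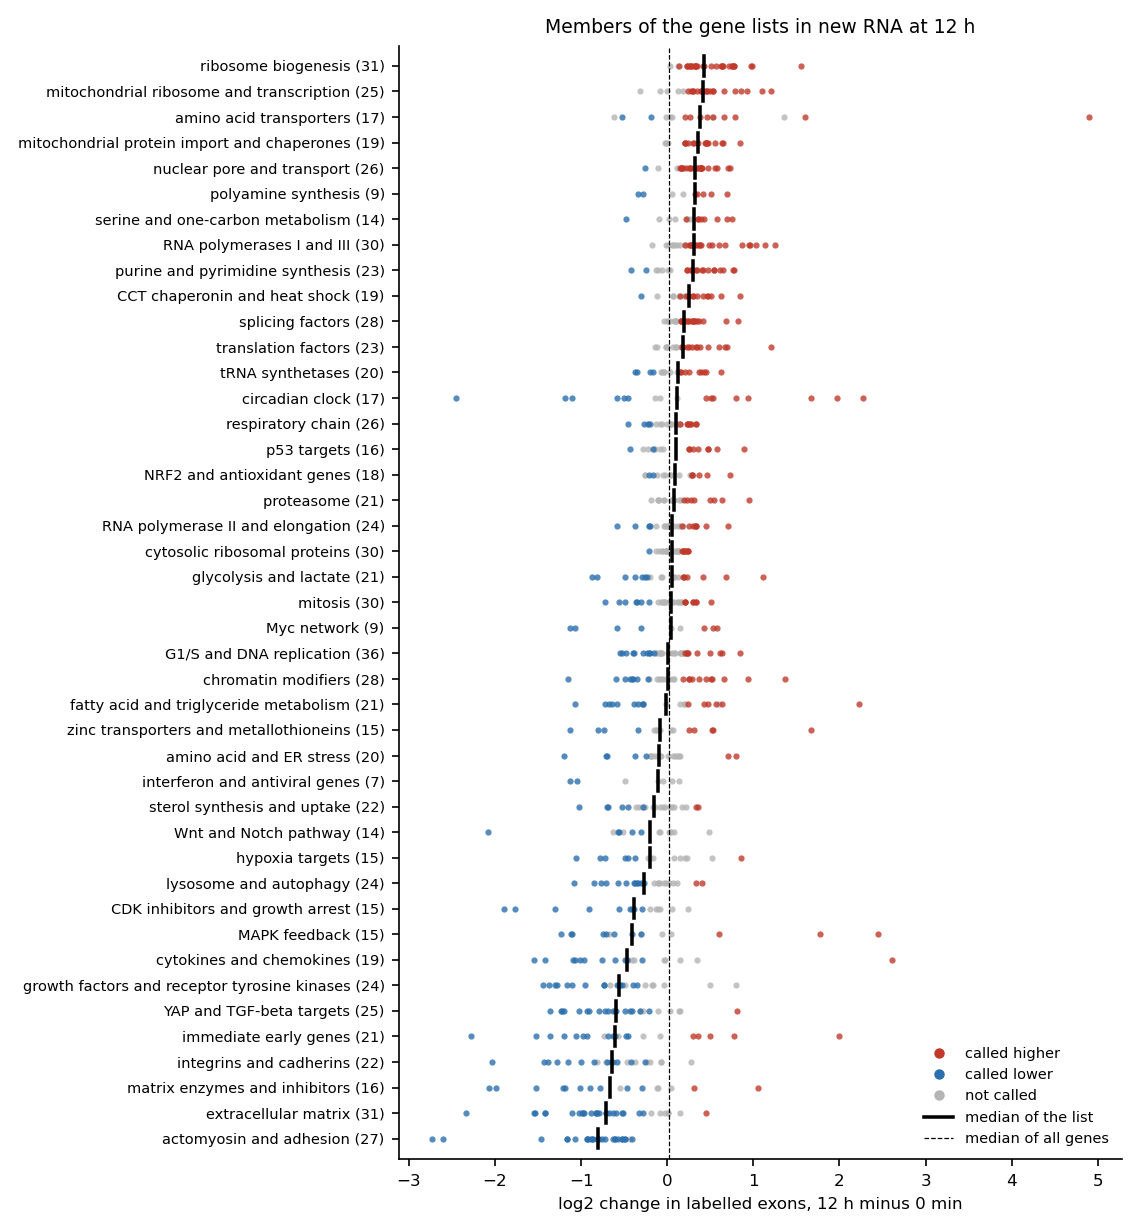
Log2 change in labelled exons, 12 h minus 0 min (x axis), of each tested member of the gene lists (rows, with the number tested), coloured by its call, with the list's median as a bar and the median of all genes as a dashed line. Ribosome biogenesis is at the top with 29 rising of 31, and actomyosin and adhesion at the bottom with 26 falling of 27.

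Feedback and immediate early genes moved in both directions. Among MAPK feedback genes 3 rose and 8 fell of 15, with Dusp2 and Spry1 (1.77), a brake on signals from receptor tyrosine kinases, on the rising side and Spred3 (-1.12) and Dusp10 (-0.71) on the falling side. Of 21 immediate early genes 12 fell and 5 rose, with Arc (-1.06), Cyr61 (-1.20) and the transcription factor Srf (-0.63) among the falls. CDK inhibitors and growth arrest genes had 9 falling and 0 rising of 15, with the atypical cyclin Ccng2 at -1.90, Gadd45g at -1.77 and Btg2 at -1.31, and 5 falling without replicate 1 at 12 h. Cdkn1a, the inhibitor p21, was low, with 12.2, 18.8 and 15.3 at 12 h, against 28.1, 24.2 and 37.9 at 0 min. The groups did not overlap and it fell by 0.91 ± 0.38 (limma adjusted p = 0.0472), but the call ended without replicate 1 or 3 at 12 h, without replicate 1 or 3 at 0 min and with library weights.

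In exons, cell cycle lists were called at shares close to the 25.2% rising and 24.3% falling of all genes. In G1/S and DNA replication 9 (25%) rose and 10 (27.8%) fell of 36. Ccnd2, a D-type cyclin, rose by 0.85 ± 0.081 and Ccne1 by 0.63, while the replication helicase gene Mcm7 (-0.40) and Cdk2 (-0.55) fell. Cdk4, the partner of D-type cyclins, averaged 3980.3 ± 186 at 12 h and 3952 ± 400.1 at 0 min (SD, n = 3 each), with a log2 change of 0.014 ± 0.072 (limma adjusted p = 0.892). Among mitosis genes 8 (26.7%) rose and 7 (23.3%) fell of 30, with the checkpoint kinase Bub1b at 0.51 and Foxm1, a factor that drives mitotic genes, at -0.48. Without the extra scaling G1/S had 4 rising and 13 falling, and mitosis 5 and 7, with medians below 0 in both. Without replicate 1 at 0 min 5 mitosis genes rose. In introns G1/S had 13 (36.1%) rising and 4 (11.1%) falling of 36, and mitosis 9 (30%) and 5 (16.7%) of 30. Of all genes 27.9% rose and 26.8% fell in introns.

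The Myc network had 3 rising and 4 falling of 9 tested members, with a median that turned below 0 under several settings. In exons, where reads of the floxed gene and of MycER may be mixed, Myc values were 1209.5, 1762 and 1788 at 12 h, against 3902, 2719 and 3344 at 0 min. All 3 libraries at 12 h were below those at 0 min, and it fell by 1.07 ± 0.16 in exons (limma adjusted p = 1.19e-06) and by 0.90 in introns. Its dimer partner Max rose by 0.58 and the Max-binding repressor Mga by 0.43, while Mxd4, a repressor that competes with Myc for Max, fell by 1.13. Of the circadian clock, 8 rose and 6 fell of 17. Nr1d1, the nuclear receptor that represses Arntl, had 875, 926 and 1039 at 12 h, against 349, 285 and 263 at 0 min, with no overlap, and rose by 1.67 ± 0.11, but it overlaps Thra on the opposite strand. The repressor Bhlhe41 rose by 1.98 while Nfil3 fell by 1.11.

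Lists of lipid, sugar and stress genes are to be read beside the 25.2% rising and 24.3% falling of all genes, and several lay near these shares. Glycolysis and lactate was at 28.6% and 33.3%, and zinc transporters and metallothioneins at 33.3% and 26.7%. Amino acid and ER stress was near the share of all genes only in its falls, at 25%, and below it in its rises, at 10%. Dgat2, the last enzyme of triglyceride synthesis, rose by 2.23 ± 0.16, while the fatty acid oxidation gene Acadl fell by 0.72 and the list had 6 rising and 9 falling of 21. In glycolysis and lactate 6 rose and 7 fell of 21, with the lactate carrier Slc16a1 at 1.12 and the phosphofructokinase Pfkl at -0.82, and 3 rising and 7 falling without the extra scaling. The falls in that list numbered 4 without replicate 2 at 12 h or replicate 1 at 0 min and 3 without replicate 3 at 0 min, and the rises 3 without replicate 2 at 12 h. Of 24 lysosome and autophagy genes 12 fell and 2 rose, with Sqstm1 (-0.58) and Grn (-0.77) among the falls. Amino acid and ER stress genes had 2 rising and 5 falling of 20, with asparagine synthetase (Asns) at 0.71 and the stress factor Xbp1 at -0.71. NRF2 and antioxidant genes had 5 rising and 2 falling of 18, with Gclc, which makes glutathione, at 0.73, and 3 rising and 4 falling without the extra scaling. Hypoxia targets had 1 rising, Ero1l (0.85), and 6 falling of 15. The p53 targets had 8 rising and 2 falling of 16, and 4 and 4 without the extra scaling, with Trp53inp1 at 0.89. Among zinc transporters and metallothioneins 5 rose and 4 fell of 15, and the zinc exporter Slc30a1 rose by 1.67. Of 28 chromatin modifiers 11 rose, among them Ezh1 (1.37), and 8 fell, among them Hdac7 (-1.15), and 7 rose and 9 fell without the extra scaling.

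Exon and intron values come from the same libraries, so their calls are not independent of each other. Of the genes called higher in exons 2406 (83%) were also called higher in introns, and of those called lower 2285 (81.9%) were called lower in introns, while 5 were higher in exons and lower in introns and 3 the reverse. Lingo1, a leucine-rich repeat protein of neurons, had intron values of 64.8, 81.7 and 110.4 at 12 h, against 1.01, 1.98 and 0 at 0 min. It was near 0 at 0 min in exons as well, with 27.4, 28.2 and 34.8 at 12 h, against 0, 2.01 and 0 at 0 min, and its intron log2 change of 5.54 ± 0.42 depends on the pseudocount because 1 library at 0 min was listed at 0. Smtnl2, a smoothelin-like protein, had intron values of 169, 170.2 and 191 at 12 h, against 10.1, 4.95 and 4.14 at 0 min. Its exon values were 222, 283 and 284 at 12 h, against 167, 188 and 142 at 0 min, so introns rose by 4.67 ± 0.24 and exons by 0.66 ± 0.16. Onecut3, a transcription factor, behaved likewise, with a log2 change of 3.72 ± 0.47 in introns and 0.79 ± 0.29 in exons, where the call ended without replicate 2 or 3 at 12 h or replicate 3 at 0 min.

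The largest intron falls included genes of contraction and of the matrix. Myl9, the regulatory light chain of smooth muscle myosin, had intron values of 54.0, 24.0 and 19.1 at 12 h, against 228, 264 and 376 at 0 min and exon values of 397, 411 and 460.3 at 12 h, against 1113, 1038 and 1365 at 0 min. Replicate 1 was highest of the 12 h introns, and introns fell by 3.23 ± 0.39 and exons by 1.46 ± 0.18. Loxl2, a lysyl oxidase that cross-links collagen, had intron values of 50.1, 54.8 and 24.1 at 12 h, against 340.2, 243 and 292 at 0 min. Its exon values overlapped, with 262, 289 and 334 at 12 h, against 311, 301 and 266 at 0 min, so introns fell by 2.80 ± 0.25 (limma adjusted p = 4.02e-11) while exons gave 0.0082 ± 0.11 (limma adjusted p = 0.958). Loxl2 shares its locus with the gene Gm16867 on the opposite strand, so reads of the pair cannot be told apart. Csrp1, a LIM protein of actin bundles, had intron values of 486, 429.8 and 303 at 12 h, against 1872, 2185 and 2504 at 0 min and fell by 2.44 ± 0.23 in introns and 1.67 in exons. The transcription factor Etv1 fell by 2.54 ± 0.22 in introns.

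**Figure D4:**
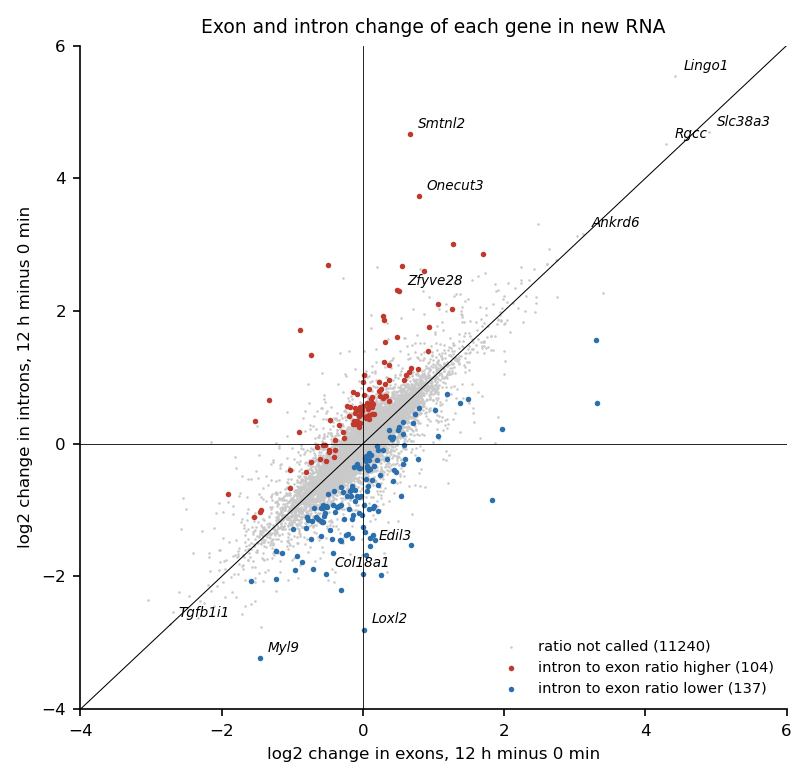
Log2 change in introns (y axis) against log2 change in exons (x axis) of labelled RNA, 12 h minus 0 min, 1 point per gene tested in both tables, with the 104 genes of higher and the 137 of lower intron to exon ratio in colour and a line of equal change. Smtnl2 and Onecut3 lie above the line, and Loxl2 and Myl9 below it.

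The ratio of introns to exons was tested gene by gene, and few genes passed. Of 11481 genes, 104 (0.906%) had a higher and 137 (1.19%) a lower ratio at 12 h, 2.1% in all, with 21 (0.183%) and 33 (0.287%) past a log2 change of 1, with 104 called without replicate 3 at 12 h or without replicate 3 at 0 min, and 5 when the fit held only the 6 libraries compared. Without the extra scaling the median ratio of all genes moved from about 0 to a log2 change of 0.13 and the split turned to 155 higher and 58 lower. Of the 12 named ratio genes, Flot2 was the 1 that kept its call under every alternative run. Zfyve28, a zinc finger protein of endosomes, had intron values of 513, 433 and 576 at 12 h, against 122, 79.2 and 109 at 0 min, while its exons were at 88.2, 119 and 78.8 at 12 h, against 71.6, 63.4 and 62.8 at 0 min. Introns rose far more than exons, a log2 change in the ratio of 1.79 ± 0.36 (limma adjusted p = 0.00639). Flot2, flotillin of membrane rafts, had exon values of 147, 105 and 129 at 12 h, against 447, 472 and 518 at 0 min. Its introns, at 776, 648 and 683 at 12 h, against 1199.6, 1118 and 1252 at 0 min, were lower at 12 h by less, and the ratio rose by 1.15 ± 0.16 (limma adjusted p = 1.70e-04). Dpf1, a subunit of neural BAF chromatin complexes, had a ratio higher by 1.04 ± 0.14.

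In the other direction, Unc13c, a protein of synaptic vesicle release, had intron values of 126, 139 and 157 at 12 h, against 391, 357 and 349 at 0 min. Its exon values stayed close, at 1696, 1766 and 1564 at 12 h, against 1634, 1502 and 1437 at 0 min, and the ratio fell by 1.51 ± 0.17 (limma adjusted p = 9.39e-06). Traf5, an adaptor of tumour necrosis factor receptors, had intron values of 487, 428 and 456 at 12 h, against 1083, 1287 and 1099 at 0 min and exon values of 987, 1299.7 and 1313 at 12 h, against 1087, 1387 and 1044 at 0 min. Its introns did not overlap between times while its exons did, and the ratio fell by 1.37 ± 0.14 (limma adjusted p = 1.88e-06). Edil3 (-1.64), an integrin-binding matrix protein, Col18a1 (-1.43), which overlaps Slc19a1, Elovl7 (-1.25) and Slc22a15 (-1.22) also had lower ratios. The genes with lower ratios were long, with a median span of 74.9 kb over 125 annotated genes, against 16.2 kb for those with higher ratios and 25.5 kb for all. Of those with lower ratios 52.8% overlapped another annotated gene, against 33.3% of those with higher ratios and 36.5% of all, and the part of such overlaps in the ratio was not tested. For calls in exons the median spans were 22.6 kb for rises, 32.8 kb for falls and 25.5 kb for all.

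Cytosolic ribosomal protein genes differed between the tables. In exons 8 of 30 rose (26.7%, near the 25.2% of all genes) and 1 fell (3.33%, against 24.3%), with a median of 0.054. In introns 22 rose (73.3%, against 27.9% of all genes) and 0 fell (against 26.8%), with a median of 0.38. The exon count rests on single libraries and on scaling, with 0 rising and 1 falling without replicate 2 at 12 h, 4 rising without replicate 3 at 12 h, 5 rising without replicate 1 or 2 at 0 min, and a median of -0.0346 without the extra scaling. Rpl27 (0.24) and Rps24 (0.19) had small rises in exons. The ratio was higher in 4 members (13.3%, against 0.906% of all genes) and lower in 0 (against 1.19%). Among the higher were Rpl8 (0.49), Rpl37 (0.36) and Rplp0 (0.47), named after their values were seen. Ribosomal protein genes have many near-identical processed copies in the genome, so their exon values are uncertain. In the respiratory chain list the ratio was higher in 3 members (11.5%, against 0.906% of all genes). They were Ndufa4 (0.48), Cox6c (0.35) and Cox7b (0.55), also named after their values were seen.

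Total RNA at the same times, which holds older transcripts too, was tested in its own table. Of 11486 genes 3148 (27.4%) rose and 3404 (29.6%) fell, 57% in all, with 386 (3.36%) and 452 (3.94%) past a log2 change of 1. Of the genes higher in labelled exons 2368 (81.7%) were also higher in total exons, and of those lower 2264 (81.1%) were lower in total exons, while 12 were higher in labelled and lower in total exons and 8 the reverse. Ribosome biogenesis had 28 rising and 0 falling of 31 in total RNA, and actomyosin and adhesion 0 rising and 24 falling. In the matrix list Col5a1 was at -1.42 in labelled and -0.78 in total RNA. Slc38a3 was at 4.90 in labelled and 6.43 in total RNA. Trp53inp1, a stress-induced p53 target, rose by 0.89 in labelled RNA and was at -0.33 in total RNA. Cytosolic ribosomal protein genes had 0 rising (against 27.4% of all genes) and 10 falling (33.3%, near the 29.6% of all genes) in total RNA. The difference between labelled and total changes was not tested.

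The 12 h libraries were also set against those at 8 h, which share no library with them. Of 11488 genes 166 (1.44%) rose and 360 (3.13%) fell between these times, 4.58% in all, with 3 (0.0261%) and 7 (0.0609%) past a log2 change of 1. Txnip, an arrestin-related protein that responds to glucose and lowers its uptake, had 746, 1475 and 1131 at 12 h, against 351, 455 and 586 at 8 h. The groups did not overlap, with replicate 1 the lowest at 12 h, and it rose by 1.24 ± 0.20 (limma adjusted p = 2.45e-04). Txnip overlaps Gm15441 on the opposite strand. The related gene Arrdc4 rose by 1.02 ± 0.27, and Klf11, a factor of TGF-beta response, by 0.92. Egr3 had 38.5, 32.4 and 36.8 at 12 h, against 109, 153 and 62.2 at 8 h, with all 12 h values below those at 8 h, and fell by 1.48 ± 0.36 (limma adjusted p = 0.0129). Adamts2, which trims procollagen, had 57.8, 35.5 and 26.6 at 12 h, against 81.4, 93.4 and 72.4 at 8 h, and fell by 1.09 ± 0.21. Cldn1 had 162, 92.9 and 77.7 at 12 h, against 181, 198 and 204 at 8 h, with replicate 1 at 12 h close to the 8 h values, and fell by 0.87 ± 0.17.

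The same 12 h libraries enter this comparison and that against 0 min, so the list counts are given for 12 h against 8 h alone and no likeness between the comparisons is read from them. In actomyosin and adhesion 16 of 27 fell between 8 h and 12 h and 0 rose (median -0.28, against 0.0037 over all genes), with Flna at -0.40 for 12 h minus 8 h. The matrix list had 7 falling of 31, among them Col5a1 (-0.61), and growth factors and receptor tyrosine kinases 7 of 24, among them Fgfr1 (-0.55). Mitosis genes had 8 rising and 0 falling of 30 (median 0.19). Ribosome biogenesis had 0 rising and 0 falling of 31. The number called in this comparison moved with single libraries, to 230 without replicate 2 at 12 h and to 200 without replicate 1 at 8 h, and the split was 52 rising and 588 falling without the extra scaling. With library sums it was 237 rising and 281 falling. Txnip was the 1 of the 12 named genes that kept its call under every alternative run.

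Against 12 h, the 16 h libraries differed in few genes. At 16 h 15 genes (0.131%) were higher and 12 (0.104%) lower than at 12 h, 0.235% in all, and 0 of them reached a log2 change of 1. Ccng2 had 213, 209.5 and 181 at 16 h, against 128, 134 and 79.8 at 12 h. All values at 16 h were above those at 12 h, by 0.85 ± 0.16 (limma adjusted p = 0.0138). Fam198b, whose product is a Golgi protein, had 1240.0, 1391 and 1385 at 16 h, against 1538, 2224 and 1985 at 12 h, a change of -0.50 ± 0.084 for 16 h minus 12 h. The count rests on single libraries, with 304 genes called without replicate 1 at 12 h, 5 without replicate 2 and 0 without replicate 3. It was 1, 12 and 9 without replicates 1, 2 and 3 at 16 h. Without the extra scaling 26 were higher and 4 lower. None of the 12 genes named for this comparison kept its call under every alternative run.

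The spread between the 3 libraries at 12 h was within the range of the other times by its median, but highest of the 11 times in its upper part. The median SD of log2 exon values was 0.125 at 12 h, against 0.116 at 0 min, with a range of 0.0957 to 0.143 over all times, and in introns 0.119 at 12 h, against 0.12 at 0 min. The SD that 90% of genes stayed under was 0.363 at 12 h, against 0.319 at 0 min, in exons and 0.346 at 12 h, against 0.315 at 0 min, in introns, and both values at 12 h were the highest of the 11 times. An SD over 0.5 was found for 570 exon genes (4.96%) at 12 h, against 462 (4.02%) at 0 min, and for 575 at 8 h. In introns it was found for 504 genes at 12 h, the highest count, against 417 at 0 min. Among genes with at least 50 in at least 3 libraries 155 (1.5%) passed 0.5 in exons at 12 h, against 73 (0.706%) at 0 min and 43 to 129 at the other times. Single genes called at 12 h could still have unlike libraries. Wscd2 had 126, 67.9 and 39.9 at 12 h, against 122, 166 and 253 at 0 min. Replicate 1 at 12 h reached into the 0 min values while replicate 3 was far below, and the fitted change was -1.29 ± 0.29. C1qtnf1 had 60.8, 24.0 and 27.6 at 12 h, against 80.3, 129 and 127 at 0 min, with replicate 1 again the highest at 12 h, and fell by 1.64 ± 0.29. Lgals2, a galectin, had 50.7, 43.8 and 16.4 at 12 h, against 59.99, 59.4 and 48.0 at 0 min, with replicate 3 apart from the other two at 12 h. Its fall of 0.72 ± 0.27 and the falls of Wisp2 (-1.41), Notum (-0.86) and Trpm4 (-0.90) were not called without replicate 3 at 12 h.

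Genes of sterol synthesis and uptake had the widest split between the 12 h libraries of the 44 lists in exons and in total RNA, and the next widest after cytokines in introns. These genes are switched on together by the factor SREBP when a cell lacks sterols. In 21 of 22 tested members replicate 1 was the highest of the 3 libraries at 12 h, in exons, in introns and in total RNA alike. The median deviation of the list from the mean of the 3 libraries at 12 h was 0.38, -0.22 and -0.19 in replicates 1, 2 and 3 in exons, and 0.39, -0.29 and -0.09 in total RNA. At 0 min the exon deviations were -0.23, 0.23 and -0.03, and replicate 1 was the lowest in 20 of 22. The list had the widest split of the 44 lists at 0 min as well, in exons, introns and total RNA, so a wide split was not particular to 12 h. Idi1, an isomerase of the isoprenoid pathway named after its values were seen, had 2828, 1339 and 1304 at 12 h, against 1556, 2838 and 2026 at 0 min. Its values overlapped between the times in an uneven way, and its change of -0.29 ± 0.22 was not called. Hsd17b7, an enzyme of cholesterol synthesis, had 387, 272 and 274 at 12 h, against 504, 765 and 631 at 0 min. It did not overlap and fell by 1.02 ± 0.15 (limma adjusted p = 6.42e-07).

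Counts for the sterol list therefore rest on which libraries enter. With all libraries 2 rose and 6 fell of 22 in exons (median -0.15), and without replicate 1 at 12 h 0 rose and 12 fell (median -0.32). Without replicate 2 at 12 h 3 rose and 3 fell, without replicate 3 at 12 h 2 and 2, and without replicate 2 at 0 min 2 and 3. The falls in the full set included Hsd17b7, Fdft1 (-0.53), Mvd (-0.69), Msmo1 (-0.45) and Sc5d (-0.28), and the rises Dhcr7 (0.36) and Stard4 (0.33), of which the last 4 were named after their values were seen. Across 11463 genes, deviations at 12 h of labelled and total libraries with the same number correlated at r = 0.274, 0.178 and 0.132. All pairs with different numbers were at or below 0.0273. Deviations of the 3 libraries sum to 0 for each gene, so correlations above 0 for the same number push the others down. Genes are not independent replicates, and these correlations carry no p.

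**Figure D5:**
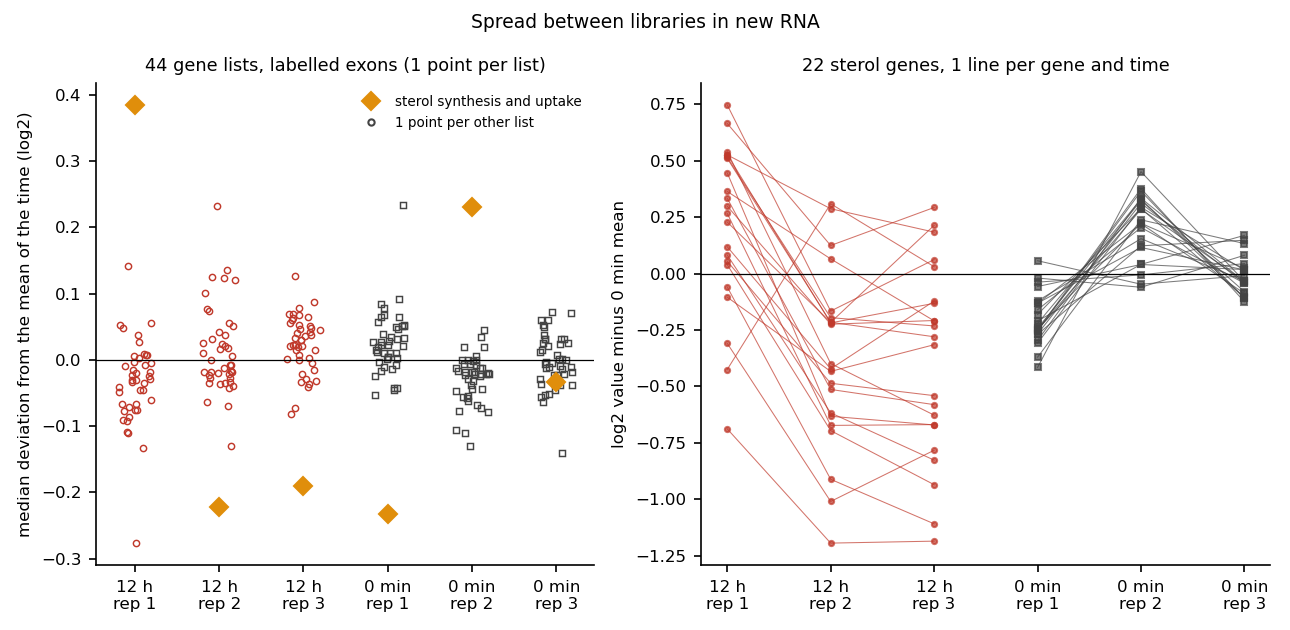
Left, median deviation of each of the 44 gene lists from the mean of its time (y axis, log2, labelled exons, 1 point per list) in each library (x axis), with the sterol list as diamonds. Right, log2 value minus the 0 min mean of each of the 22 sterol genes in the same libraries, 1 line per gene and time. The sterol list had the widest split of the lists at 12 h, with 0.38, -0.22 and -0.19 in replicates 1, 2 and 3. It was also the widest at 0 min, with -0.23, 0.23 and -0.03.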

How the data were processed

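Labelled RNA was sequenced in 33 libraries (11 times, 3 each), and total RNA likewise. The 3 libraries at 12 h and the 3 at 0 min are compared here, with 8 h, 16 h and total RNA as neighbours. The submitters' processing notes name TopHat2 2.0.8, TopHat and build mm9 but no role for any of them. Which tool counted, with which annotation and strand setting, is not given in the sources used here. As deposited by the authors, one kind of table holds whole numbers named counts, which had been rescaled per library and were used here as a score, not as read counts, and the other holds RPKM values, which are the same numbers times 1 constant per gene. A design written for counts was therefore replaced.

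Libraries of a table were scaled to each other by trimmed means of log ratios (0.3 of log ratios and 0.05 of levels trimmed at each end). Genes with at least 10 in at least 3 libraries were fitted on log2(scaled value + 1), with a mean for each time and all 33 libraries together, in limma 3.58.1 (trend on the mean level) in R 4.3.3. The intron to exon ratio used a pseudocount of 2. All tests are two-sided, adjusted over all genes by the Benjamini-Hochberg method, and genes with an adjusted p under 0.05 were called. Adding 1 before the logarithm understates changes of low genes, and ± is their standard error unless SD is written. On simulated data for labelled exons at 12 h against 0 min (11488 genes) 74% of 1.5-fold, 94% of 2-fold and 98% of 3-fold rises were recovered. The simulation changed 50 genes at each fold, left out the lowest genes and gave each gene independent noise. In the data 49.5% of genes were called, so these rates need not hold there.

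Named genes are the 12 largest rises and falls in exons, 6 and 6 in the other comparisons, up to 4 members per list with the smallest p, 6 with the widest spread at 12 h, and always Cad, Ccnd2, Cdk4, Cdkn1a, Myc, Ncl and Odc1. Those named by size of change averaged 50 or more in the higher group, a curated symbol and no overlap between the groups' values; those of the ratio had means of at least 50 in both tables at both times. Genes named after their values were seen are marked. The comparison, lists and members were chosen with earlier results of these data known. Gene positions come from GENCODE M1 on mm9, and promoters from RefSeq on GRCm38.p6. Other scalings, pseudocounts, filters, RPKM, sample sets, library weights, a replicate block and leaving out each library were tried. Total RNA introns were not used, and some named genes and 1 gene list are not reported here.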

Additional observations from a re-analysis of the deposited data

How the results depend on the processing

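The counts of called genes at 12 h against 0 min kept within 1.5 times of 5690 in exons and 6296 in introns under every alternative run, with 4966 to 5520 in exons, 5560 to 6107 in introns and 5928 to 6315 in total exons when 1 library was left out, and none of the named called genes changed sign. Of 211 named genes in exons 207 were called and 190 kept the call in all alternatives, as did 12 of 12 in introns, 1 of 12 for the ratio, 1 of 12 for 12 h against 8 h and 0 of 12 for 16 h against 12 h. The ratio count of 241 ranged from 104 to 295 when 1 library was left out, with 104 without replicate 3 at 12 h or at 0 min, and was 5 with only the 6 libraries compared. The count of 526 for 12 h against 8 h ranged from 200 to 604 and was 45 with only the 6 libraries, and its split was 44 rising and 452 falling for RPKM plus 0.1 and 53 and 387 for RPKM plus 1. The count of 27 for 16 h against 12 h ranged from 0 to 304, with 1, 12 and 9 without replicates 1, 2 and 3 at 16 h. It was 16 for RPKM plus 0.1, 11 for RPKM plus 1, 0 with only the 6 libraries and 100 with library weights. In exons at 12 h against 0 min the split was 2060 rising and 3337 falling for RPKM plus 0.1 and 2062 and 3334 for RPKM plus 1. Of 44 gene lists 18 had a larger count that moved by over 1.5 times, or a median that changed sign, under some alternative.

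Uncalled exon changes of 2 named genes changed sign, with a range of -0.086 to 0.091 for Loxl2 and -0.057 to 0.089 for Cdk4 when 1 library was left out. Loxl2 was at -0.080 without the extra scaling, -0.0037 with median-of-ratios factors, -0.070 and -0.040 for RPKM plus 0.1 and plus 1, and -0.086 and -0.059 without replicate 3 at 12 h and at 0 min. Cdk4 was at -0.075 without the extra scaling, -0.074 and -0.073 for RPKM plus 0.1 and plus 1, -0.0012 with library weights, and from -0.057 to -0.0044 without replicate 1 at 0 min or replicate 1 or 2 at 12 h. The causes of these shifts were not tested.

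Deviations of the libraries with the same replicate number at 12 h and 0 min correlated at -0.149, 0.045 and -0.163 in exons. In both groups replicate 2 had the lowest exon sum and the highest intron share (74.1% at 12 h, 74.2% at 0 min). Whether replicate numbers pair libraries across times is therefore not settled by these values. With a replicate block the counts were 5909 in exons, 6433 in introns, 270 for the ratio, 713 for 12 h against 8 h, 45 for 16 h against 12 h and 6886 in total exons. The median SD at 12 h was 0.116 to 0.128 over its alternatives. Depth could not be used as a limit because read numbers are unknown.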
